A study of Homo sapiens with 8 samples.

Results

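Hemidesmosomes are the junctions that fix basal epithelial cells to the basement membrane. Expression of 9 genes that build these junctions and the basement membrane beneath them was examined in Kyse510 cells, a human esophageal squamous cell carcinoma (ESCC) line. The genes were chosen by name, with earlier results of these data known. They are the integrin subunits ITGA6, ITGB4, ITGA3 and ITGB1, the transmembrane collagen COL17A1, the plakins DST and PLEC, and the laminin chains LAMA3 and LAMB3. All 9 were listed in both deposited tables, among 26360 genes that the tables share. RNA sequencing was performed on 8 libraries, each from a different condition and none replicated. For pharmacological treatment, cells were given vehicle, SP2509 (an inhibitor of the histone demethylase LSD1, gene KDM1A) at 7 µM, UNC0642 (an inhibitor of the histone methyltransferase G9a, gene EHMT2) at 7 µM, or both, for 2 days, and the combination has no dose of its own in the labels. For the knockdowns, stable lines carried a doxycycline-inducible shRNA against LSD1 or G9a in the lentiviral Tet-pLKO-puro vector, were selected in puromycin for 14 days, and were studied without doxycycline (shLSD1, shG9a) or after 2 days with it (shLSD1+Dox, shG9a+Dox). Each knockdown library was compared with its own line without doxycycline. No library of a non-targeting shRNA with doxycycline was used here, so an effect of doxycycline and an effect of the knockdown cannot be told apart.

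In a hemidesmosome, the integrin dimer of ITGA6 and ITGB4 binds laminin-332 outside the cell, and the long ITGB4 tail binds the plakin PLEC, which carries keratin filaments. Stratified epithelia add collagen XVII (COL17A1, also called BP180) and the epithelial form of dystonin (DST, also called BP230). ITGB1 pairs with many alpha subunits, and with ITGA3 it forms a second laminin-332 receptor that lies outside the hemidesmosome. LAMA3 and LAMB3 encode the alpha and beta chains of the laminin-332 trimer, and loss of its chains or of the hemidesmosome proteins is a known cause of blistering disease. In squamous carcinomas the same genes are known for their part in the invasive front.

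The sequences upstream of start sites are shown for the laminin chain genes, which moved in the same direction in 4 of the 5 comparisons, and for COL17A1, whose change was the widest of the 9. The search used RefSeq windows of 6 of the 9 genes (12 windows, GRCh38.p14). Windows of ITGB4, ITGA3 and PLEC were not part of the search, so the counts below do not cover these genes. The 250 bases before each start were searched on both strands for the AP-1 motif TGANTCA, where N is any base. Letters of this motif read the same on both strands. Capitals mark the matches. All motifs were chosen after the expression values were seen.
LAMA3, chr18:23872770-23873019, plus strand: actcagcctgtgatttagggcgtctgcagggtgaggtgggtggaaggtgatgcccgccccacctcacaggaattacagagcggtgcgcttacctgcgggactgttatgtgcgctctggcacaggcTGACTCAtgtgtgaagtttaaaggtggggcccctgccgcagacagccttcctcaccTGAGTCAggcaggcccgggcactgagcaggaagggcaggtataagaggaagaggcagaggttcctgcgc
LAMB3, chr1:209651375-209651624, minus strand: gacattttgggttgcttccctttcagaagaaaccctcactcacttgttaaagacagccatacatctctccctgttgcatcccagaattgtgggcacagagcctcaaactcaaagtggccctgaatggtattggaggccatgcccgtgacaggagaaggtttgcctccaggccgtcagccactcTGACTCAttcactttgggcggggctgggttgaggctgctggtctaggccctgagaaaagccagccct
COL17A1, chr10:104085881-104086130, minus strand: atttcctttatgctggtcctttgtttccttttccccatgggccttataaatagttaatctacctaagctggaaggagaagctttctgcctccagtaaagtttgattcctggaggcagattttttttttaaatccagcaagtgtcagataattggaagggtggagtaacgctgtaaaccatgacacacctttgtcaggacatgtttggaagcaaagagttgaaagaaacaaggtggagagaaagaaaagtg
The LAMA3 window held 2 matches, which began 125 and 69 bases before the start, and this start lies inside the annotated span of the gene. The LAMB3 window, also inside the gene's span, held 1 match that began 67 bases before the start. The other windows of the 6 genes, the other 2 of LAMB3 included, held none. Over all 35116 RefSeq windows of this length, 6.57% held the motif at least once and 0.402% held it at least 2 times. Among the 12 windows it was found in 2. The GC box GGGCGG was found in 7 of the 12 windows and in 42.6% of all windows, TATAAA in 3 and in 10.7%, and the TEAD motif GGAATG in 2 and in 11.9%. The LAMB3 windows without an AP-1 match overlap each other and hold the same GC box, which is counted in each. A match is a description of the letters and not of binding.

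Sequencing gave 15662035 to 17889466 reads per library, estimated from the FPKM values (fragments per kilobase of gene length, scaled to library depth). The knockdown checks followed their labels, since KDM1A fell from 26.0 to 6.29 FPKM in shLSD1+Dox and EHMT2 from 7.85 to 4.76 FPKM in shG9a+Dox. In shG9a+Dox, KDM1A rose from 26.4 to 35.8 FPKM, and in the combination EHMT2 fell from 11.1 to 5.38 FPKM. Squamous markers were abundant, with a summed level of 610 to 1442 FPKM for the 7 listed genes, while the 3 immune markers summed to at most 0.117 FPKM and the 5 fibroblast markers to at most 6.74 FPKM. The 3 endothelial markers summed to 3.56 to 14.5 FPKM, and most of that was CDH5 in every library. Of the squamous markers, the basal transcription factor TP63 was at 79.1 FPKM in vehicle, 127 with SP2509, 62.6 with UNC0642 and 18.3 in the combination. In the combination KRT5 also fell, SFN, EPCAM, KRT6A and KRT14 rose, SFN from 179 to 690 FPKM, and CDH1 was at 65.2 FPKM in vehicle and 60.8 with both. How far these marker shifts bear on the results was not tested.

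**Figure D1:**
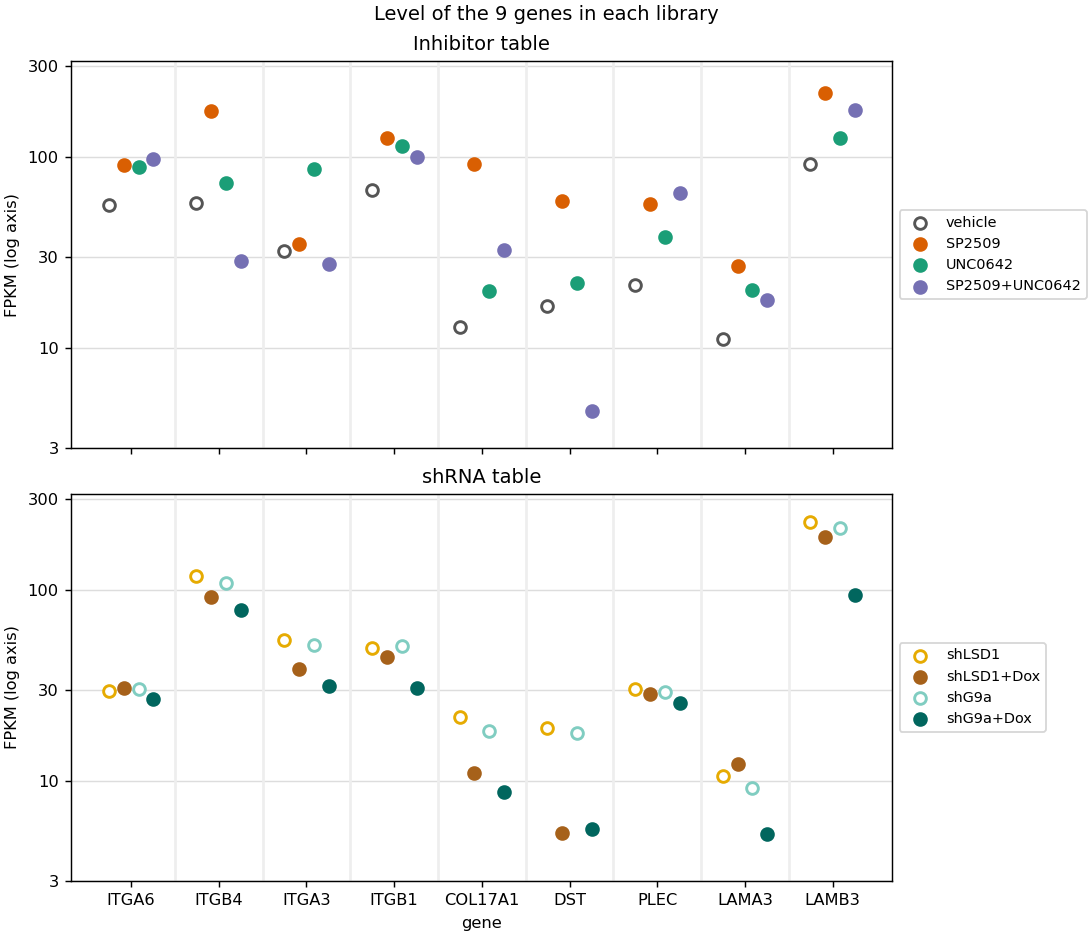
Level of the 9 genes in the 4 libraries of each table, as FPKM on a log axis, with open circles for vehicle and uninduced lines and filled circles for treated libraries. With inhibitors most filled circles lie above the open circle, except ITGB4, ITGA3 and DST in the combination, and with doxycycline 8 of 9 genes were lowest in shG9a+Dox.

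Nearly the whole set was higher with SP2509. Of the 9 genes, 8 rose and none fell, against 18.2% of all 13342 tested genes called higher and 37.5% called lower. A gene was called when FPKM + 1 changed by at least 1.3-fold and a two-sided exact binomial test on the reads of the 2 libraries gave an unadjusted p under 0.05. In counts of genes, rose and fell mean called higher and called lower. That test compares 2 libraries and covers counting error only, since no condition had a replicate, and in bulk RNA fewer cells of a type and less RNA per cell cannot be told apart. The median log2 fold change of (FPKM + 1) was 1.23 over the 9 genes and -0.21 over all tested genes. This scale understates changes of genes at low levels. ITGA3 was the exception, at 32.3 FPKM in vehicle and 35.3 FPKM with SP2509.

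UNC0642 raised 7 of the 9 genes and lowered none, against 15.8% and 14.0% of 13244 tested genes. The median log2 fold change was 0.65 over the 9 genes and -0.01 over all tested genes. ITGB4 at 0.35 and DST at 0.38 on this scale lay just under the threshold and ITGA3 led the set at 1.41. The combination of SP2509 and UNC0642 split the set. It raised ITGA6, ITGB1, COL17A1, PLEC, LAMA3 and LAMB3 and lowered ITGB4 and DST, against 29.0% of 13907 tested genes called higher and 29.1% called lower. Its median log2 fold change was 0.64 over the 9 genes and -0.02 over all tested genes. The 3 inhibitor comparisons share the vehicle library.

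With doxycycline, no gene of the set was called higher in either line. In shLSD1+Dox, ITGA3, COL17A1 and DST fell, which is 3 of 9 genes, with 10.4% of 12970 tested genes called lower and 22.7% called higher. In shG9a+Dox, 7 of 9 fell, all but ITGA6 and PLEC, with 15.8% of 13080 tested genes called lower and 30.0% called higher. The median log2 fold change of the 9 genes was -0.26 in shLSD1+Dox and -0.70 in shG9a+Dox, while over all tested genes it was 0.13 and 0.18. The trimmed mean of all log2 ratios (TMM) lay at -0.28 for SP2509, 0.15 for shLSD1+Dox and 0.23 for shG9a+Dox, and within 0.1 of zero for the others. TMM scaling subtracts this value, so log2 changes become higher with SP2509 and lower with doxycycline. Relative to it, no call among the 9 genes or the lists described further on changed sign. With that scaling 5 of the 9 genes were called lower in shLSD1+Dox, ITGB4 and LAMB3 being added, and all 9 in shG9a+Dox.

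**Figure D2:**
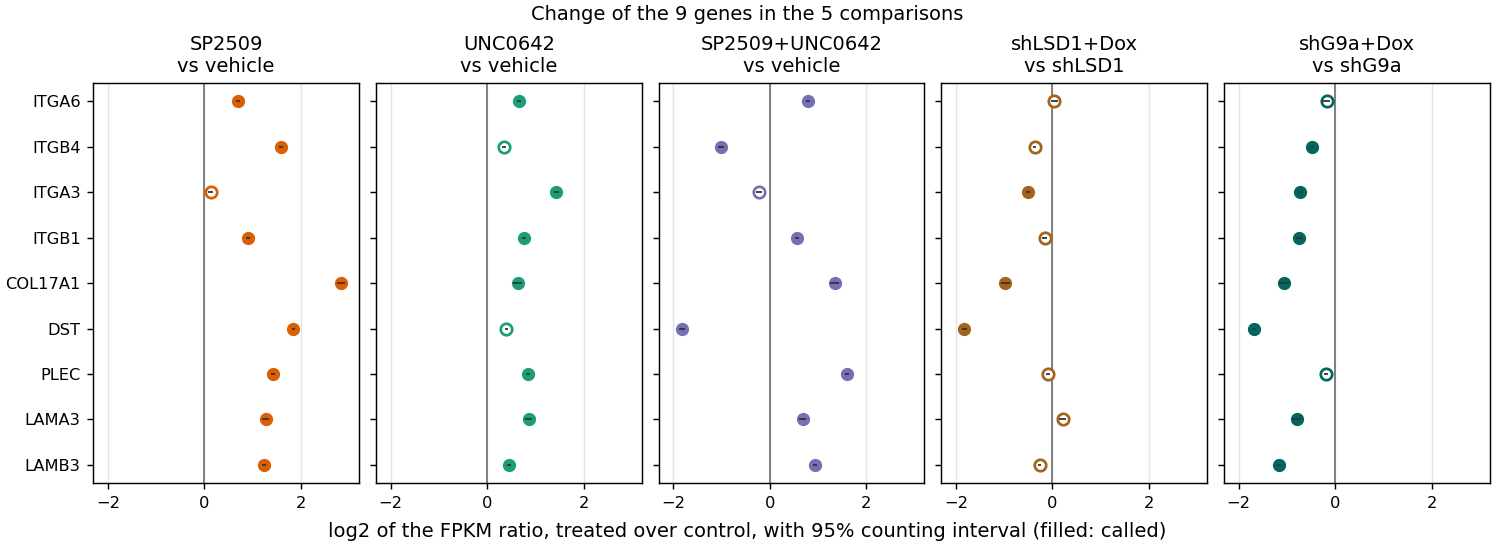
Change of each gene in the 5 comparisons, as log2 of the FPKM ratio with the 95% counting interval as a bar, filled where called. Points of the inhibitor panels lie to the right of 0 except ITGB4, ITGA3 and DST in the combination, and in the shG9a+Dox panel all 9 points lie to the left.

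ITGA6 (chr2:172427354-172506282, plus strand), the alpha subunit of the hemidesmosomal integrin, was at 56.6 FPKM in vehicle, 91.4 with SP2509, 89.6 with UNC0642 and 98.0 with both. The 3 treated levels lay close together, all above vehicle, with FPKM ratios of 1.62 (95% counting interval 1.56 to 1.67), 1.58 (1.53 to 1.63) and 1.73 (1.68 to 1.79). The shRNA lines had 29.7 FPKM in shLSD1, 30.6 in shLSD1+Dox, 30.4 in shG9a and 27.0 in shG9a+Dox. It was not called in either line, and its log2 change in shLSD1+Dox was 0.04 as deposited and turned to -0.11 under TMM scaling. An antisense gene that overlaps ITGA6, AC078883.1, was at 0.705 FPKM in vehicle and 1.19 to 2.87 FPKM with inhibitors, and whether the counting used strand is not given in the sources used here.

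ITGB4 (chr17:75721328-75757818, plus strand), the partner of ITGA6 and the subunit that contacts PLEC, moved differently. It was at 57.7 FPKM in vehicle, 174 with SP2509, 73.7 with UNC0642 and 28.7 with both. The level was thus highest with SP2509 alone, at 3.02 times vehicle (2.94 to 3.11), and lowest in the combination, at 0.497 times vehicle (0.476 to 0.519). Among shRNA libraries it was at 119 FPKM in shLSD1, 92.2 in shLSD1+Dox, 110 in shG9a and 79.1 in shG9a+Dox. It fell in shG9a+Dox (ratio 0.722, 0.703 to 0.742), and its ratio of 0.773 (0.754 to 0.793) in shLSD1+Dox lay just short of a call. GALK1, which overlaps ITGB4 on the other strand, stayed at 2.50 to 7.43 FPKM over the 8 libraries.

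The 2 subunits of this dimer therefore did not keep a fixed proportion. The ratio of ITGB4 to ITGA6 FPKM, a per-length comparison within a library, was 1.02 in vehicle, 1.91 with SP2509, 0.822 with UNC0642 and 0.293 with both. In the shRNA lines it was 4.02 in shLSD1, 3.02 in shLSD1+Dox, 3.60 in shG9a and 2.93 in shG9a+Dox. All 4 shRNA libraries stood above all 4 inhibitor libraries. The scaling of a library cancels in this ratio, and the fitted lengths of ITGB4 and ITGA6 were the same in both tables. The lines were handled differently, and the source of the difference was not tested. Uninduced lines had 2.07 (shLSD1) and 1.90 (shG9a) times the ITGB4 level of vehicle and 0.524 and 0.537 times its ITGA6 level. These levels come from tables that were normalised separately. This setting side by side was chosen after the values were seen.

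ITGA3 (chr17:50055968-50090481, plus strand), the alpha subunit of the other laminin-332 receptor, was at 32.3 FPKM in vehicle, 35.3 with SP2509, 87.2 with UNC0642 and 27.6 with both. It was highest with UNC0642 alone, at 2.70 times vehicle (2.62 to 2.79), and 258 of 13244 tested genes rose more. The combination level lay near vehicle and was not called. The knockdown libraries had it at 54.9 FPKM in shLSD1 and 38.6 in shLSD1+Dox, and at 51.8 FPKM in shG9a and 31.4 in shG9a+Dox. It fell in both lines, to 0.703 (0.681 to 0.725) and 0.606 (0.586 to 0.627) times the uninduced level.

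ITGB1 (chr10:32900319-33005792, minus strand), the shared beta subunit of many matrix receptors, was at 67.7 FPKM in vehicle, 127 with SP2509, 115 with UNC0642 and 100.2 with both. All 3 treated levels rose, by ratios of 1.88 (1.82 to 1.94), 1.70 (1.65 to 1.75) and 1.48 (1.44 to 1.53). Its level was 49.9 FPKM in shLSD1, 44.7 in shLSD1+Dox, 51.2 in shG9a and 30.6 in shG9a+Dox, and only the last was a call (0.598, 0.572 to 0.626). The reads of ITGB1 are uncertain because its processed pseudogene ITGB1P1 was itself listed in the inhibitor table at 21.9 FPKM in vehicle and 40.3 to 46.1 FPKM with inhibitors. With the pseudogene's reads added, a variant chosen after the data were seen, the log2 changes of ITGB1 were 0.90, 0.77 and 0.57, and all 3 calls held.

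COL17A1 (chr10:104031286-104086002, minus strand), the transmembrane collagen that bridges the hemidesmosome to the matrix, was at 12.9 FPKM in vehicle, 92.3 with SP2509, 20.0 with UNC0642 and 32.9 with both. It rose in each, and the rise with SP2509 to 7.14 times vehicle (6.74 to 7.57) was exceeded by 76 of 13342 tested genes. The level in the combination was 0.357 times that with SP2509 alone and 1.65 times that with UNC0642 alone. Among shRNA libraries COL17A1 was at 21.7 FPKM in shLSD1, 11.0 in shLSD1+Dox, 18.2 in shG9a and 8.73 in shG9a+Dox. It fell to 0.509 (0.476 to 0.543) and 0.480 (0.446 to 0.517) times the uninduced level. Its fitted length was 6426 bases in the inhibitor table and 7066 bases in the shRNA table, so its levels are not comparable between the arms.

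DST (chr6:56457987-56954628, minus strand), whose epithelial form anchors keratin to the plaque, was at 16.6 FPKM in vehicle, 59.2 with SP2509, 21.9 with UNC0642 and 4.72 with both. The level rose to 3.57 times vehicle (3.49 to 3.64) with SP2509 and fell to 0.284 times vehicle (0.273 to 0.295) in the combination. The combination level was 0.0796 times the level with SP2509 alone. Among shRNA libraries DST was at 18.9 FPKM in shLSD1, 5.33 in shLSD1+Dox, 17.8 in shG9a and 5.57 in shG9a+Dox. It had the largest fall of the 9 genes in each line, with ratios of 0.282 (0.272 to 0.292) and 0.312 (0.301 to 0.323), and 124 of 12970 and 305 of 13080 tested genes fell more. Values are summed over transcripts, so the epithelial, neuronal and muscle forms of DST were not resolved.

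PLEC (chr8:143915147-143976734, minus strand), the plakin that links ITGB4 to keratin, was at 21.4 FPKM in vehicle, 56.9 with SP2509, 38.5 with UNC0642 and 64.8 with both. It rose in each, with ratios of 2.66 (2.58 to 2.74), 1.80 (1.74 to 1.86) and 3.03 (2.94 to 3.12). Over the 4 shRNA libraries it stayed between 25.7 and 30.5 FPKM, and neither change was a call as deposited. The 2 plakins thus parted in the combination, where the ratio of PLEC to DST FPKM was 13.7, against 1.29 in vehicle, 0.961 with SP2509 and 1.76 with UNC0642. With doxycycline the same ratio went from 1.61 to 5.37 in the shLSD1 line and from 1.64 to 4.62 in the shG9a line.

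**Figure D3:**
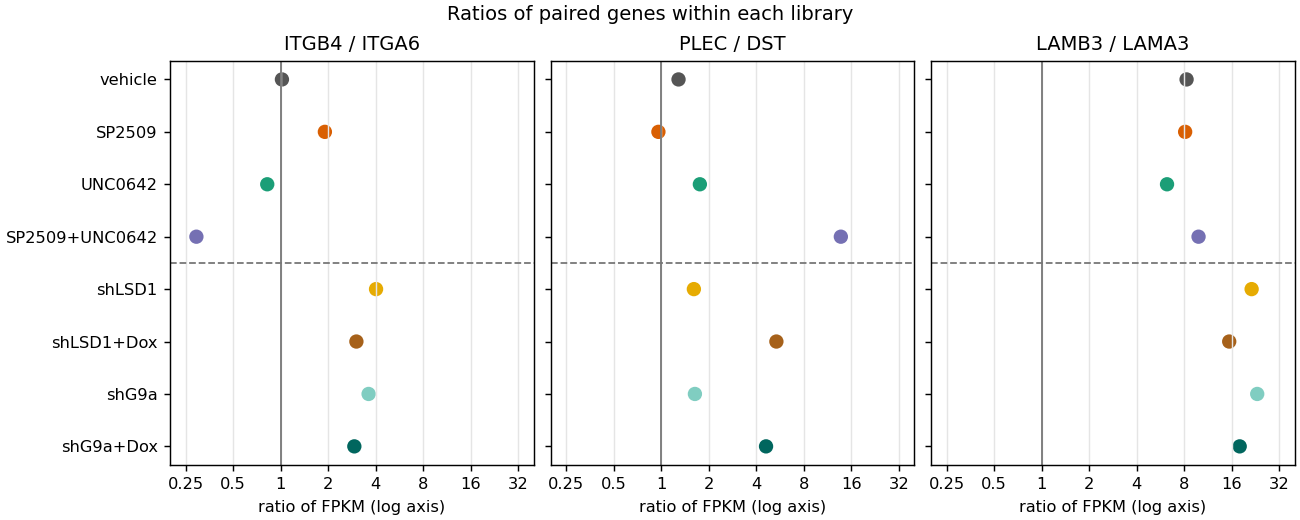
Ratio of FPKM between gene pairs within each library, on a log axis, with inhibitor libraries above the dashed line and shRNA libraries below it. The combination has the lowest ITGB4 to ITGA6 ratio (0.293) and the highest PLEC to DST ratio (13.7). The LAMB3 to LAMA3 ratio lies at 6.23 to 9.86 in the inhibitor table and 15.4 to 23.2 in the shRNA table. The fitted length of LAMA3 is 13522 bases in the inhibitor table and 14678 in the shRNA table, and that of LAMB3 is 4688 in both.

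LAMA3 (chr18:23689443-23955066, plus strand), the alpha chain of laminin-332, was at 11.2 FPKM in vehicle, 26.9 with SP2509, 20.2 with UNC0642 and 18.0 with both. It rose in all 3, with ratios of 2.41 (2.30 to 2.53), 1.81 (1.72 to 1.90) and 1.61 (1.53 to 1.69). Its shRNA levels were 10.6 FPKM in shLSD1, 12.3 in shLSD1+Dox, 9.15 in shG9a and 5.26 in shG9a+Dox. Only the fall in shG9a+Dox (0.575, 0.537 to 0.616) was a call. The fitted length of LAMA3 was 13522 bases in the inhibitor table and 14678 bases in the shRNA table, so its levels too are not comparable between the arms.

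LAMB3 (chr1:209614870-209652466, minus strand), the beta chain, had the highest level per length of the 9 genes in every library. Fitted lengths in the inhibitor table were 4688 bases for LAMB3 and 13522 for LAMA3. Transcript forms were not resolved for any gene, so level comparisons and ratios between genes depend on these lengths. LAMB3 was at 92.5 FPKM in vehicle, 218 with SP2509, 126 with UNC0642 and 177 with both, and it rose in each. In the genetic arm it was at 228 FPKM in shLSD1, 190 in shLSD1+Dox, 212 in shG9a and 94.5 in shG9a+Dox. The fall in shG9a+Dox to 0.445 times the uninduced level (0.433 to 0.458) was a call and the ratio of 0.835 (0.818 to 0.853) in shLSD1+Dox was not. Both chains rose with each inhibitor treatment and fell in shG9a+Dox. The ratio of LAMB3 to LAMA3 FPKM was 8.28 in vehicle, 8.11 with SP2509, 6.23 with UNC0642 and 9.86 with both, a narrower spread than that of the ITGB4 to ITGA6 ratio in the same libraries. With doxycycline it went from 21.4 to 15.4 in the shLSD1 line and from 23.2 to 18.0 in the shG9a line.

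Other laminin chains, which form the laminins of most other basement membranes, were tested from a list of 8. For this list and those that follow, the background is the share of all tested genes called higher and lower. It was 18.2% and 37.5% with SP2509, 15.8% and 14.0% with UNC0642, and 29.0% and 29.1% in the combination. With doxycycline it was 22.7% and 10.4% in shLSD1+Dox and 30.0% and 15.8% in shG9a+Dox. No set test was run, and some list counts lay near these shares. In the combination, where LAMA3 and LAMB3 rose, 5 were tested and 1 rose and 4 fell, with a median log2 fold change of -1.24. LAMA5 fell from 67.6 to 18.5 FPKM, LAMB1 from 24.2 to 8.15, LAMB2 from 31.8 to 12.9 and LAMC1 from 94.7 to 41.7. These 4 chains make up laminins that epithelia share with other tissues. LAMA4 was the chain that rose, from 0.359 to 1.23 FPKM. It was tested only because the treated library passed the filter of 1 FPKM. With SP2509 alone, none of 4 tested chains rose and 1 fell (LAMA5, to 47.6 FPKM), with a median of -0.14. With UNC0642 LAMA4 rose and LAMB2 fell to 20.5 FPKM, of 5 tested, with a median of -0.057. LAMA4 again passed the filter only through the treated library, at 0.359 FPKM in vehicle and 1.38 with UNC0642. LAMB2 rose with doxycycline in both lines, to 85.7 FPKM from 65.0 in shLSD1 and to 90.8 from 65.4 in shG9a, and LAMA5 fell in shLSD1+Dox (125 to 95.1 FPKM). The medians of the 4 tested chains there were -0.10 and -0.055.

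**Figure D4:**
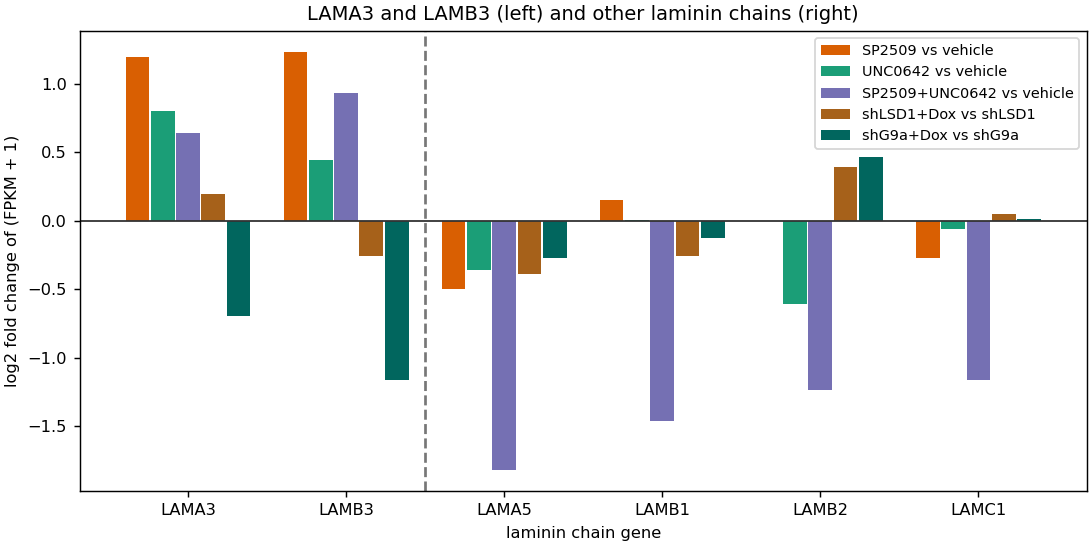
Log2 fold change of (FPKM + 1) of laminin chain genes in the 5 comparisons, with LAMA3 and LAMB3 left of the dashed line and 4 other chains right of it. In the combination LAMA3 lies at 0.64 and LAMB3 at 0.93 and the right group between -1.82 and -1.16.

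The combination was set beside its components after the values were seen. Of the 9 genes, 7 were lower in the combination than with SP2509 alone and 5 were lower than with UNC0642 alone. In all 9 the log2 change in the combination was below the sum of the 2 separate log2 changes, by 3.78 for DST, 2.91 for ITGB4 and 2.05 for COL17A1 and by 0.55 for ITGA6, the smallest gap. Of the 9 genes, 6 were highest with SP2509 among the 4 inhibitor libraries, while ITGA6 and PLEC were highest in the combination and ITGA3 with UNC0642. No replicate stands behind these differences, and no interaction was tested. Each sum uses the single vehicle library for all 9 genes. The same counts over all tested genes were not computed, so whether they are particular to the 9 genes is not known.

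Among the other proteins of the basement membrane, 10 of the 14 listed genes were tested in each inhibitor comparison. SP2509 raised 3 and lowered 3, UNC0642 raised 2 and lowered 1, and the combination raised 1 and lowered 5, with medians of -0.05, 0.09 and -0.53 on the log2 scale. COL7A1, the anchoring fibril collagen that binds laminin-332, rose from 18.0 FPKM to 34.3, 31.0 and 30.5. The heparan sulfate proteoglycan AGRN fell from 58.4 to 33.5 FPKM with SP2509 and to 28.9 in the combination. FRAS1, which helps attach epithelium to the underlying tissue, fell from 8.85 to 4.81 FPKM with UNC0642 and to 2.71 in the combination. Of 9 tested with doxycycline, none rose and 1 fell in shLSD1+Dox, and 4 rose and 1 fell in shG9a+Dox, where FRAS1 went from 3.51 to 5.70 FPKM. The medians there were 0.16 and 0.11.

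Integrin subunits outside the set included the widest changes of the wider lists. Of 7 tested, 5 rose and 1 fell with SP2509, 5 rose and 1 fell with UNC0642, and 4 rose and none fell in the combination, with medians of 1.59, 1.02 and 0.69. ITGA2, a collagen and laminin receptor subunit, was at 12.0 FPKM in vehicle, 96.3 with SP2509, 50.0 with UNC0642 and 63.2 with both. ITGA5, the fibronectin receptor subunit, was at 3.66 FPKM in vehicle, 24.8 with SP2509, 25.5 with UNC0642 and 64.0 with both. In contrast, of 6 tested with doxycycline, 1 rose and 3 fell in shLSD1+Dox and none rose and 3 fell in shG9a+Dox, with medians of -0.20 and -0.58. ITGA5 was at 29.2 FPKM in shLSD1 and fell to 4.65, and it was at 23.7 FPKM in shG9a and fell to 3.79. ITGA2 was at 13.1 and 10.1 FPKM in these uninduced lines and fell to 5.41 and 1.95. The uninduced lines thus differed from vehicle in ITGA5 before any induction.

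**Figure D5:**
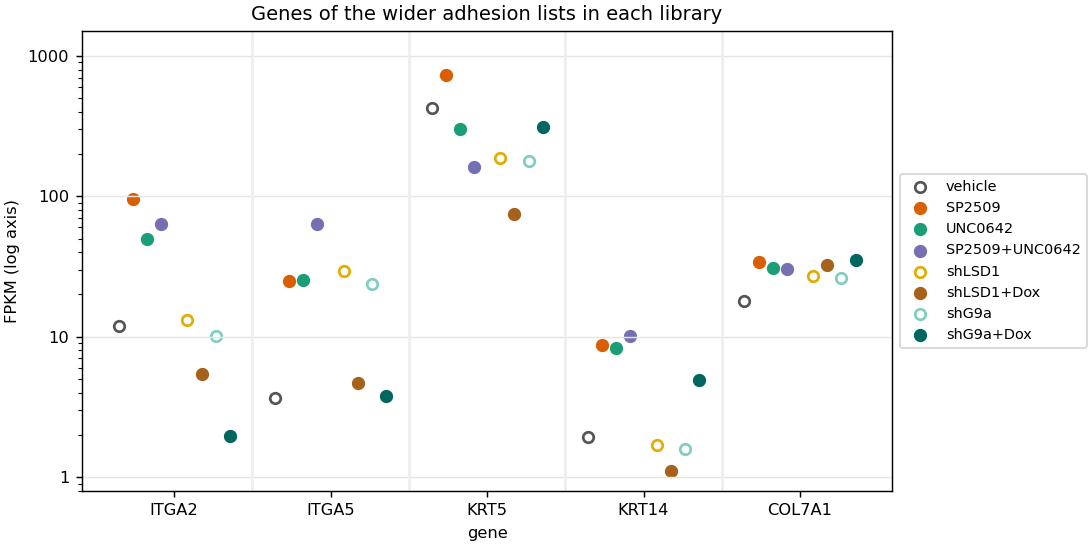
Level of 5 genes of the wider lists in all 8 libraries, as FPKM on a log axis, with open circles for vehicle and uninduced lines. ITGA2 and ITGA5 lie above vehicle with each inhibitor treatment and below the uninduced line with doxycycline, while KRT5 lies above its control in SP2509 and shG9a+Dox only.

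The partners of the hemidesmosome did not move as a block. Of 7 listed partners and other laminin receptors, all tested, 3 rose and 3 fell with SP2509. With UNC0642 2 rose and 3 fell, and in the combination 2 rose and 4 fell. The medians were 0.17, -0.29 and -0.65. Over all tested genes, 18.2% rose and 37.5% fell with SP2509, 15.8% and 14.0% with UNC0642, and 29.0% and 29.1% in the combination. CD151, the tetraspanin that binds laminin-binding integrins, was at 9.89 FPKM in vehicle, 15.0 with SP2509, 10.5 with UNC0642 and 15.6 with both, and at 16.5 to 20.1 FPKM in the shRNA lines with no call. KRT5, the basal keratin carried by the plaque, was at 427 FPKM in vehicle, 734 with SP2509, 303 with UNC0642 and 163 with both. Its order across the inhibitor libraries, highest with SP2509 and lowest in the combination, was that of ITGB4 and DST at its ends. KRT14, the partner of KRT5, was far lower, at 1.93 FPKM in vehicle and 8.31 to 10.1 FPKM with inhibitors. Among the receptors, BCAM, which binds LAMA5-containing laminins, fell from 34.7 to 26.5, 16.9 and 6.87 FPKM, and SDC1, a heparan sulfate proteoglycan, fell to 24.8 FPKM from 46.8 with SP2509 and rose to 78.9 with UNC0642. In shLSD1+Dox 3 of the 7 rose and 1 fell, with a median of 0.19, and BCAM rose from 22.6 to 46.5 FPKM while KRT5 fell from 188 to 74.6. In shG9a+Dox 3 rose and none fell, with a median of 0.24, and KRT5 rose from 177 to 312 FPKM while ITGB4, DST and COL17A1 fell.

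The other plakins listed were MACF1 and the plakins of desmosomes and the cornified envelope, DSP, EVPL and PPL. Of 4 tested, 1 rose and 1 fell with SP2509, 1 rose with UNC0642 and 2 fell in the combination, with medians of 0.08, -0.18 and -0.35. DSP, the desmosomal plakin, was at 81.8 FPKM in vehicle, 116 with SP2509, 68.8 with UNC0642 and 51.1 with both. EVPL fell from 5.92 FPKM to 3.09 with SP2509. With doxycycline 1 rose and 2 fell in shLSD1+Dox and 2 rose and 1 fell in shG9a+Dox, with medians of -0.21 and 0.15, where PPL fell from 51.3 FPKM to 35.9 and from 47.7 to 24.1 and EVPL rose to 7.75 and 8.84 FPKM.

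Genes of focal adhesions and integrin activation, the actin-linked counterpart of the hemidesmosome, were mixed. Of 12 tested, 5 rose and 2 fell with SP2509, 4 rose and 2 fell with UNC0642, and 1 rose and 6 fell in the combination, with medians of 0.13, 0.01 and -0.34. VCL, the vinculin gene, was at 27.1 FPKM in vehicle, 94.9 with SP2509, 46.4 with UNC0642 and 29.3 with both. ZYX, the zyxin gene, rose from 28.2 FPKM to 74.3, 46.2 and 43.7, and the kindlin FERMT1 fell from 17.5 FPKM to 9.93, 11.2 and 5.64. In the genetic arm VCL, ZYX, FERMT2 and CAV1 fell and FERMT1 rose in each line. That was 1 rise and 4 falls of 11 tested in shLSD1+Dox (median -0.11) and 2 rises and 4 falls of 12 tested in shG9a+Dox (median 0.02). CAV1, the caveolin gene, fell from 37.9 to 16.6 FPKM in shLSD1+Dox and the kindlin FERMT2 from 14.5 to 7.06 FPKM in shG9a+Dox.

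Proteases that process collagen XVII or laminin-332 were the last list. Of 5 tested, 2 rose and 1 fell with SP2509, none was called with UNC0642, and 1 rose and 1 fell in the combination, with medians of 0.09, 0.22 and 0.12. BMP1, which trims laminin chains, rose from 6.82 to 14.6 FPKM with SP2509 and to 12.9 in the combination. The sheddase ADAM10 rose from 6.06 to 8.78 FPKM in shLSD1+Dox, the only call there (median 0.08). In shG9a+Dox 1 rose and 2 fell (median -0.06), and ADAM17, which sheds collagen XVII, fell from 7.36 to 4.46 FPKM.

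Likeness between genes was measured as the root mean square difference of their 5 log2 fold changes, with 4393 other protein-coding genes at 5 FPKM or more in all 8 libraries as candidates. Low values mean like patterns, and 3 of the 5 comparisons share vehicle. Among the 9 genes the closest pair was ITGB1 and LAMA3 (0.21) and the most distant DST and PLEC (1.72). ITGA6 had the closest neighbour, CAP1 (0.06), followed by ITPR3 and WBP2. ITGB1 was nearest to ADA (0.12), PLEC to AHNAK2 (0.17), LAMB3 to NFKB2 (0.19), LAMA3 to ADA (0.24), COL17A1 to CSRP1 (0.30), ITGB4 to TBC1D2 (0.31) and ITGA3 to SEMA4B (0.33). DST was the most isolated of the 9, with EGFR nearest at 0.64 and GJA1 and FERMT2 after it. DST itself lay below the candidate filter in the combination, at 4.72 FPKM. Genes that fell to such levels were not candidates, so its distance depends in part on the filter.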

How the data were processed

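RNA-seq was performed on 8 libraries of Kyse510 cells, 1 per condition, grouped by the sample labels. The authors removed low-quality reads, mapped the rest to GRCh38 and deposited FPKM values in 2 tables that were normalised separately. The aligner, the counting tool and the use of strand are not given in the sources used here. No column of the tables was left unmapped.

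Library totals and reads were estimated from the FPKM steps, with gene lengths taken as the smallest that gave whole reads in all libraries of a table or up to 4 times that where a reference length matched. Summed gene reads were 99.6% to 99.8% of the totals. Each of the 5 comparisons used log2 of (FPKM + 1), genes with at least 1 FPKM in 1 of the 2 libraries, a fold of at least 1.3 and a two-sided exact binomial test (unadjusted p under 0.05). Ratios carry 95% counting intervals. The script was tested on simulated data. Alternatives were other pseudocounts (0.1 and 0.01), filters, folds, scalings, lengths, call rules and controls.

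Named were the 9 genes, KDM1A and EHMT2, CD151, for each list and comparison the called gene with the largest rise and fall at 5 FPKM or more, and the 3 most like genes. Genes named beyond that rule were chosen after their values were seen. They were LAMA4, LAMB1, LAMC1, MACF1, ITGA2 where it was not the largest, and overlapping genes. The cell type markers given with values or calls, such as TP63 and CDH5, were also among them. The 9 genes and the lists were chosen with earlier results of these data known, and 1 listed gene is not reported here. Tools were Python 3.11.15, numpy 2.4.6, pandas 2.3.3, scipy 1.17.1 and matplotlib 3.10.9.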

Additional observations from a re-analysis of the deposited data

Results flagged for a closer look

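For 6 of the 9 genes, inhibition and knockdown aimed at the same enzyme were called in opposite directions for at least 1 enzyme. The share of all tested genes called in opposite directions was not computed, so this count has no background beside it. On the scale of log2 fold change of (FPKM + 1), the LSD1 pair gave 2.74 with SP2509 and -0.92 in shLSD1+Dox for COL17A1, and 1.77 and -1.65 for DST. The G9a pair gave 1.41 with UNC0642 and -0.70 in shG9a+Dox for ITGA3, 0.76 and -0.72 for ITGB1, 0.59 and -0.98 for COL17A1, 0.80 and -0.70 for LAMA3, and 0.44 and -1.16 for LAMB3. The difference was not tested, since each arm has 1 library per condition, and the arms differ in agent, in line and in doxycycline.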

How the results depend on the processing

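Recomputing the counts of called genes, for each comparison and direction under each alternative, gave 104 values, of which 98 stayed within 1.5 times the reported count. The 98 include counts that were 0 as reported and under every alternative. These were falls with SP2509, falls with UNC0642 and rises in both doxycycline comparisons. With a fold of at least 2, 1 gene rose with UNC0642 (ITGA3), 2 rose in the combination (COL17A1, PLEC) and 1 fell there (DST), 1 fell in shLSD1+Dox (DST) and 2 fell in shG9a+Dox (DST, LAMB3). With TMM scaling, 5 fell in shLSD1+Dox (ITGB4, ITGA3, COL17A1, DST, LAMB3). Of 183 recomputed values of the log2 changes of the 9 genes, 172 kept their direction and side of the threshold, 9 passed it newly, ITGA3 with SP2509 under TMM scaling (0.40) among them, and 2 reversed. The reversals were ITGA6 in shLSD1+Dox, at -0.069 when centred on the median and -0.11 with TMM scaling, neither a call. No paired analysis was possible because each condition has 1 library, and for the same reason no replicate could be left out. The widest 95% interval of a ratio among the 9 genes spanned 14.9% of the ratio.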
